A study of Mus musculus with 6 samples.

Results

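The neuronal pentraxins are a family of 3 genes, Nptx1, Nptx2 and Nptxr, and their RNA was examined in cultured cerebellar granule neurons (CGNs) given GSK-126, a small molecule inhibitor of the histone methyltransferase EZH2, or its vehicle DMSO. The members were taken by gene symbol, 3 of the 55341 genes listed in each count table, and all 3 were among the 16729 genes tested. The family was chosen by its values in this same contrast, in which Nptx1 was already known to be lower with GSK-126, so the differences of the members between GSK-126 and DMSO are given as a description without a test.

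RNA-seq with poly(A) enrichment was made from 6 cultures, 3 with DMSO and 3 with GSK-126, numbered 1 to 3 in both groups. The methods of the study describe granule neuron progenitors purified on a Percoll gradient from cerebella of CD1-IGS mice at P6-P8, cytosine arabinoside at DIV2 against dividing non-neuronal cells in all cultures, a single addition of the drug at DIV3 and RNA collection at DIV5. The labels name the tissue as cerebellum and the time as D3, and no dose is given for the DIV3 addition. Each replicate is a culture made from pooled litters, so the spread between libraries is a spread between cultures.

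Neuronal pentraxins are extracellular proteins that share a pentraxin domain with the acute phase proteins of serum. Nptx1 and Nptx2 (also known as Narp) are secreted, Nptxr is anchored in the membrane, and they assemble into mixed multimers. These multimers bind AMPA-type glutamate receptors and gather them at excitatory synapses, and Nptx2 is known as an activity-induced gene of forebrain neurons.

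The sequences below are the stretch of each coding sequence that encodes the pentraxin signature, with that of the secreted long pentraxin Ptx3 for comparison. They are shown because the members and Ptx3 all carry this motif, and because reads of the members had to be told apart. Capitals mark the codons of the fixed positions 1, 3 and 6 of the signature, each sequence reads 5′ to 3′ along the coding strand of the GENCODE M21 transcript, and coordinates are of GRCm38.
Nptx1, chr11:119543296-119543319, minus strand: CACatcTGTgtcaccTGGaccacc
Nptx2, chr5:144555339-144555362, plus strand: CACatcTGCatcaccTGGaccact
Nptxr, chr15:79790380-79790403, minus strand: CATatcTGCatctccTGGactaca
Ptx3, chr3:66224864-66224887, plus strand: CACctgTGTggcaccTGGagttca

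Of the 24 bases, Nptx1 and Nptx2 had 21 in common, Nptx2 and Nptxr 20, and Nptx1 and Nptxr 18. Over the aligned coding sequences, identity was 68.1% for Nptx1 and Nptx2, 66.8% for Nptx2 and Nptxr, and 66.6% for Nptx1 and Nptxr. Ptx3 was 60.5% to 61.4% identical to the members. The longest stretch shared exactly by transcripts of any pair of members was 16 to 19 bases, shorter than the 150-base reads.

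The 6 libraries held 7407189 to 13092763 counts on genes. Levels below are depth-scaled read counts (CPM) adjusted by TMM, edgeR's correction for library composition. Libraries of the same number deviated together from their group means, so pairs of the same number were compared, and replicate 2 stood apart from replicates 1 and 3 in both groups on the first principal component. Of the 7 granule neuron markers, including Neurod1, Pax6 and Gabra6, all passed the filter on low counts. Atoh1, which defines the progenitors, had 0 to 7 counts per library, and Gli1 had 1 to 12. Dividing cell markers were present, with 634 to 1790 counts of Mki67, 726 to 1652 of Top2a and 157 to 441 of Ccnb1. Markers of other cells were present, and Gfap of astroglia had 8446 to 43543 counts per library.

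Nptx1 (ENSMUSG00000025582.4) lies on the minus strand of chr11:119538719-119547753, and its 5217 exon bases overlap no other annotated gene. It encodes a secreted pentraxin that is abundant in the cerebellum. In the DMSO libraries, Nptx1 had 210, 485 and 222 CPM in replicates 1, 2 and 3, from 1821, 5206 and 2554 counts. With GSK-126 it had 112, 208 and 115 CPM, from 1472, 1935 and 858 counts. Every GSK-126 library was below every DMSO library, but the gap was thin, since GSK-126 replicate 2 (208.4 CPM) came close to DMSO replicate 1 (210.1 CPM).

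The mean of Nptx1 was 306 ± 156 CPM under DMSO and 145 ± 55.1 CPM under GSK-126 (SD, n = 3 each). The log2 ratio of GSK-126 over DMSO was -0.91 in pair 1, -1.22 in pair 2 and -0.95 in pair 3, a mean of -1.03 ± 0.17 (SD of 3 pairs), so that the GSK-126 cultures held on average 51.0% less Nptx1 RNA than their partners. The fitted log2 fold change was -1.08 (SE 0.38) without the replicate number in the model and -1.03 (SE 0.079) with the replicate number as a block. Leaving out DMSO replicate 2 alone brought the fit without the block to -0.57, while leaving out whole pairs kept the blocked value between -0.93 and -1.08. In bulk RNA such as this, fewer cells that express the gene and less RNA per cell cannot be told apart.

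Nptx2 (ENSMUSG00000059991.7) lies on the plus strand of chr5:144545902-144557478, with 2536 exon bases that overlap no other gene. It encodes the other secreted member. Its counts were low, at 17, 25 and 17 with DMSO and 29, 28 and 7 with GSK-126. These corresponded to 1.96, 2.33 and 1.48 CPM under DMSO and 2.198, 3.02 and 0.935 CPM under GSK-126, so that the GSK-126 libraries included both the highest and the lowest of the 6.

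The log2 ratios of Nptx2 were 0.16, 0.37 and -0.66 in pairs 1 to 3, with 2 pairs higher and 1 lower. The exact 95% Poisson intervals of the CPM, which cover counting error only, ran from 1.14 to 3.14 in DMSO replicate 1 and from 0.376 to 1.93 in GSK-126 replicate 3, so that single values of Nptx2 are imprecise at this depth. The fitted log2 fold change was 0.11 (SE 0.48) without the block and 0.039 (SE 0.43) with it, a value smaller than its standard error in both fits. The sign turned when DMSO replicate 3 (-0.051) or GSK-126 replicate 2 (-0.23) was left out.

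**Figure D1:**
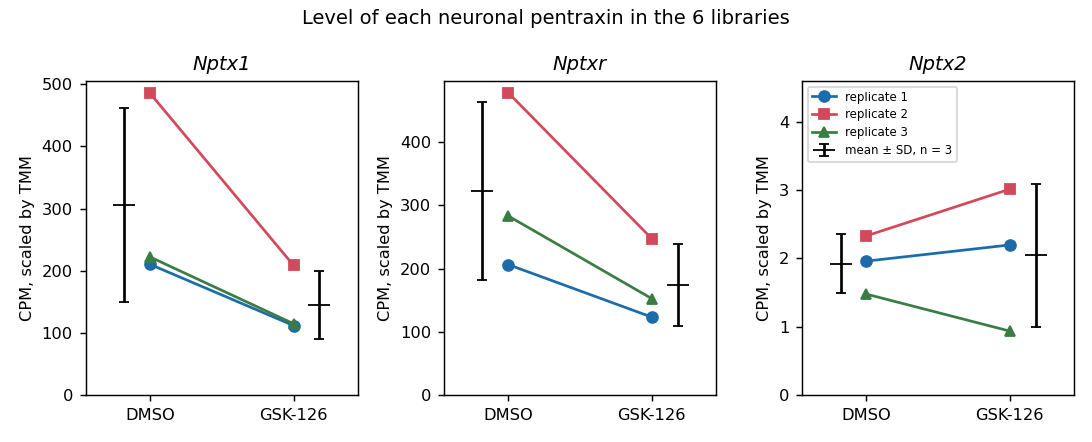
CPM (scaled by TMM) of Nptx1, Nptxr and Nptx2 in each library, with DMSO and GSK-126 libraries of the same replicate number joined by a line and black marks for the mean ± SD (n = 3); each panel has its own vertical axis from 0. Lines for Nptx1 and Nptxr slope down in all 3 pairs, replicate 2 is the highest in each group, and Nptx2 stays between 0.935 and 3.02 CPM with lines in both directions.

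Nptxr (ENSMUSG00000022421.19), the membrane-anchored member, lies on the minus strand of chr15:79786351-79804766. It had 206, 478 and 283 CPM in DMSO replicates 1, 2 and 3, from 1788, 5129 and 3258 counts. With GSK-126 it had 123, 247 and 152 CPM, from 1624, 2296 and 1141 counts. The groups overlapped, since GSK-126 replicate 2 lay above DMSO replicate 1, but each GSK-126 library was below the DMSO library of its own number.

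The mean of Nptxr was 322.5 ± 140 CPM under DMSO and 174 ± 64.9 CPM under GSK-126 (SD, n = 3 each). Its log2 ratios in pairs 1 to 3 were -0.74, -0.95 and -0.89, a mean of -0.86 ± 0.11 (SD of 3 pairs), or 45.03% less RNA. The fitted log2 fold change was -0.89 (SE 0.35) without the block and -0.86 (SE 0.074) with it. Without DMSO replicate 2 the first of these was -0.49, and with whole pairs left out the second stayed between -0.82 and -0.91.

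These descriptions can be set beside all 16729 genes tested. GSK-126 and DMSO libraries did not overlap in 9.44% of genes, in either direction, and the value was lower with GSK-126 in all 3 pairs in 22.8%. Among the members, 1 of 3 (Nptx1) had groups that did not overlap, and 2 of 3 (Nptx1 and Nptxr) were lower in all 3 pairs. The blocked log2 fold change was below that of Nptx1 in 117 genes (0.699%) and below that of Nptxr in 223 genes (1.33%). Since the contrast itself chose the family, nothing is read from these shares.

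The annotation limits how Nptxr could be counted. Of its 5170 exon bases, 890 are also exons of Npcd (ENSMUSG00000089837.9), an annotated readthrough gene on the same strand that joins exons of Cbx6, a Polycomb protein gene upstream, to exons of Nptxr. The shared bases take up exon blocks 2, 3 and 5 of Nptxr in full and 242 bases of block 6, and they include the pentraxin signature printed above. All 1453 exon bases of Npcd are shared with Nptxr or Cbx6, and Npcd was listed at 0 counts in all 6 libraries. Nptx1 and Nptx2 have no such partner.

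**Figure D2:**
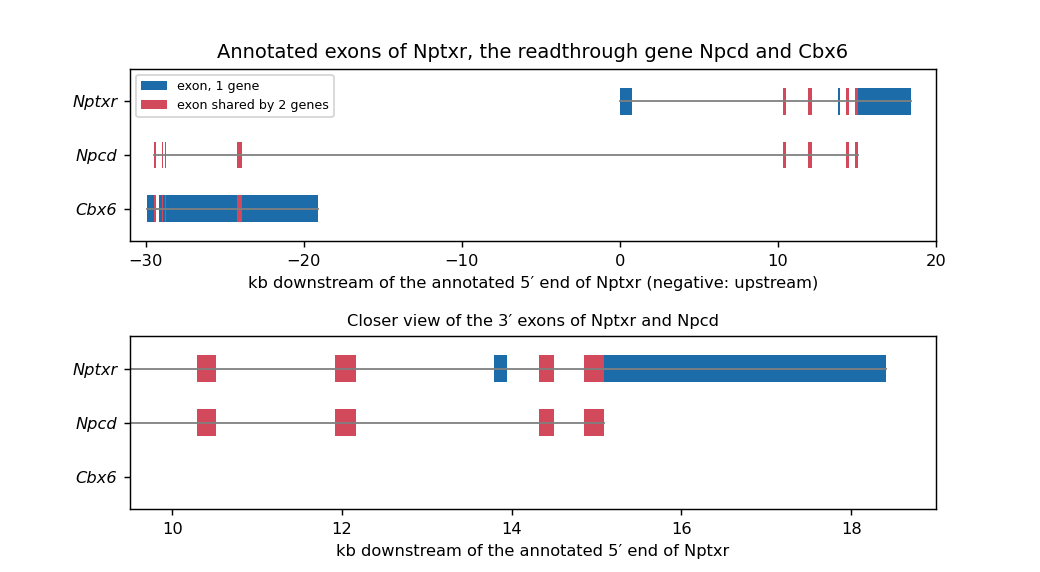
Annotated exon blocks of Nptxr, Npcd and Cbx6 by distance in kb downstream of the 5′ end of Nptxr, in red where 2 genes share them and in blue where 1 gene holds them; the lower panel enlarges the 3′ part of Nptxr. Npcd is red throughout, while the first block and most of the last block of Nptxr (792 and 3324 unshared bases) are blue.

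Cbx6 had 242.5, 307 and 263 CPM under DMSO and 195, 240.5 and 195 CPM under GSK-126. The ratio of Nptxr to Cbx6 was lower with GSK-126 in all 3 pairs, by -0.43, -0.60 and -0.46 on the log2 scale (mean -0.50 ± 0.087, SD of 3 pairs). Nptxr was therefore lower relative to its upstream neighbour in each pair, although Cbx6 itself was also lower with GSK-126 in each pair. The contrast chose the family, and only 1.33% of genes had a blocked log2 fold change below that of Nptxr. Nothing is therefore read from this ratio.

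The order of the members by level needs a correction for transcript length. Per kilobase of exon, the DMSO libraries held 62.4 ± 27.1 CPM of Nptxr, 58.6 ± 29.8 of Nptx1 and 0.758 ± 0.169 of Nptx2 (SD, n = 3). The means of Nptxr and Nptx1 were close, and Nptx2 was far below both. These SDs are spreads between cultures, not of the difference between Nptxr and Nptx1, whose ratio within each library is given below. In the GSK-126 libraries the order was the same, at 33.7 ± 12.6, 27.8 ± 10.6 and 0.808 ± 0.413 CPM per kilobase. Among 16697 genes with a length, 96.2% had a lower level per kilobase than Nptxr with DMSO, 95.8% than Nptx1 and 8.82% than Nptx2.

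Within a library, Nptxr exceeded Nptx2 by 27.5 to 100.6 times per kilobase, and Nptx1 exceeded Nptx2 by 24.7 to 101 times. The ratio of Nptx1 to Nptxr per kilobase was 1.01, 1.01 and 0.777 in the DMSO libraries and 0.898, 0.835 and 0.745 in the GSK-126 libraries. Divided by the 4280 bases that Nptxr does not share with Npcd, Nptxr was at 75.4 ± 32.8 CPM per kilobase with DMSO and 40.7 ± 15.2 with GSK-126, and Nptx1 was then below it in all 6 libraries. Which length is right depends on whether reads in shared exons were counted for Nptxr. Npcd, with all its exon bases shared, was listed at 0 counts in all 6 libraries. If the annotation used had these exons, reads lying wholly in them were thus not counted for both genes. How reads lying only partly in shared exons were counted is not given in the sources used here.

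The ratio of Nptx1 to Nptxr differed less between the groups than either level did. The difference of its log2 value in CPM, GSK-126 minus DMSO, was -0.17, -0.27 and -0.060 in pairs 1 to 3, a mean of -0.17 ± 0.10 (SD of 3 pairs). Its sign was the same in each pair. Pearson's r of their log2 CPM over the 6 libraries was 0.975. The points share their pairing and the difference of replicate 2, and no p is given.

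**Figure D3:**
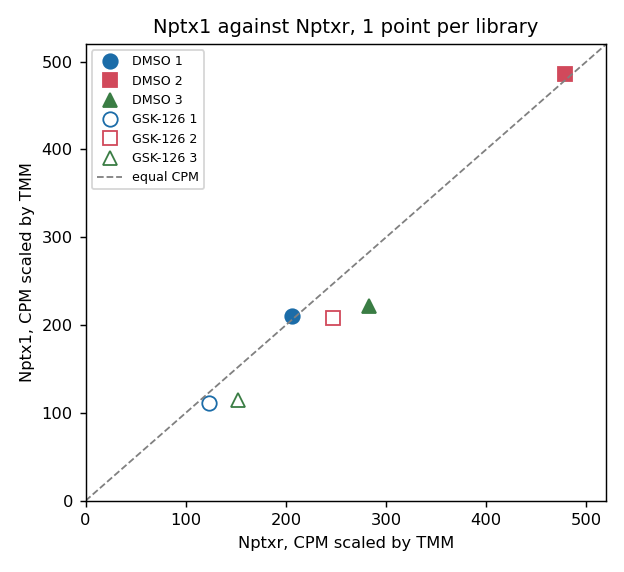
CPM (scaled by TMM) of Nptx1 against Nptxr, 1 point per library, filled for DMSO and open for GSK-126, with a dashed line of equal CPM. The 6 libraries lie along or below the line, from GSK-126 replicate 1 (123 and 112 CPM) to DMSO replicate 2 (478 and 485 CPM).

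All 3 members were highest in replicate 2 within each group. For Nptx1, replicate 2 held 2.25 times the mean of the other libraries with DMSO and 1.84 times with GSK-126. For Nptxr these ratios were 1.95 and 1.80, and for Nptx2, at its low counts, 1.36 and 1.93. The difference between cultures was thus about as large as that between GSK-126 and DMSO for Nptx1 and Nptxr.

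Summed markers moved along with these values. The granule neuron markers summed to 2766, 4505 and 3163 CPM under DMSO and to 2200, 3350 and 2389 CPM under GSK-126, highest in replicate 2 of each group, with log2 ratios of -0.33, -0.43 and -0.40 in the pairs. The pan-neuronal markers summed to 2764 to 4806 CPM under DMSO and 2094 to 3533 CPM under GSK-126, with log2 ratios of -0.40, -0.44 and -0.36. With the block, 5 of 7 granule neuron markers and 5 of 7 pan-neuronal markers passed the test as lower and 1 pan-neuronal marker, Tubb3, as higher. Over all genes tested, 5.09% passed as lower and 3.35% as higher. Pax6 (blocked log2 fold change -0.070), Zic2 (-0.20) and Stmn2 (-0.14) did not pass.

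Nptx1 was lower than the granule neuron sum by a further -0.58, -0.79 and -0.55 on the log2 scale in the pairs, a mean of -0.64 ± 0.13 (SD of 3 pairs). For Nptxr this further difference was -0.41, -0.52 and -0.49, a mean of -0.48 ± 0.056. Against the pan-neuronal sum the means were -0.63 ± 0.13 for Nptx1 and -0.46 ± 0.10 for Nptxr. The sums are weighted by abundant markers such as Zic1 (1280 of the 2766 CPM of the granule neuron sum in DMSO replicate 1), and single neuronal markers moved as far as the members. With the block, the log2 fold change was -1.19 for Gabra6, a GABA-A receptor subunit of granule neurons (adjusted p = 1.528e-07), -1.17 for the transcription factor Etv1 (adjusted p = 1.528e-07), -0.96 for the synaptic vesicle fusion protein Snap25 (adjusted p = 1.528e-07) and -0.90 for Cbln3. Gabra6 had 75.7, 216 and 84.1 CPM under DMSO and 35.6, 78.7 and 43.0 CPM under GSK-126, a larger decrease than that of Nptx1 in each pair. The difference of the members from the sums is therefore not particular to them, and the part of neuron number or state in their values was not tested.

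Sums for other cells ranged over 2315 to 7153 CPM under DMSO and 2183 to 7493 CPM under GSK-126 for astroglia, lowest in replicate 2 of each group. For vascular and fibroblast cells they were 2692 to 3932 and 3430 to 4179 CPM, for oligodendrocyte lineage cells 405 to 730.5 and 474 to 732 CPM, and for microglia 91.3 to 154 and 108 to 173 CPM. Purkinje cell and GABAergic interneuron markers summed to 200.2 to 231 CPM under DMSO and 155.5 to 186 CPM under GSK-126, without overlap. This sum was lower in all 3 pairs (log2 ratios of -0.26, -0.30 and -0.57), and Gad1 alone made up 121 of its 222 CPM in DMSO replicate 1. With the block, 3 of the 7 (Gad1, Gad2 and Slc32a1) were called lower, against 5.09% of all genes tested. Calb1 (blocked log2 fold change 0.45) and Pvalb (0.51) went the other way, Pcp2 (-1.10) and Slc6a5 (-0.30) were lower, and none of these passed. Progenitor and dividing cell markers summed to 191 to 266 and 170.5 to 295 CPM, and unipolar brush cell markers to 23.6 to 31.6 and 12.02 to 27.1 CPM, with 1 of 3 (Eomes) called lower. With the block, 1 of 7 oligodendrocyte lineage markers (Mbp) and 1 of 5 tested vascular and fibroblast markers (Pdgfrb) were called higher, against 3.35% of all genes. The other tested markers of both lists did not pass, and Olig1, Sox10, Pdgfra and Kdr had negative blocked log2 fold changes. No marker of these lists was at 0 in every library.

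**Figure D4:**
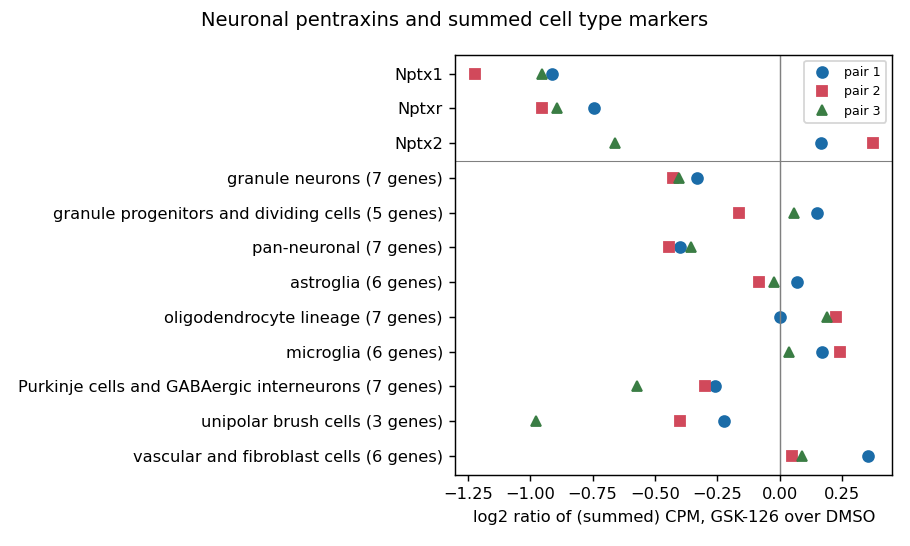
Log2 ratio of CPM, GSK-126 over DMSO in the 3 pairs, for the members and for the summed CPM of each marker list. Nptx1 and Nptxr lie to the left of the granule neuron sum (-0.33 to -0.43) and the pan-neuronal sum (-0.36 to -0.44) in every pair, although single markers within these sums (Gabra6 -1.19, Etv1 -1.17 and Snap25 -0.96 with the block) moved as far as the members, and the astroglia sum lies near 0.

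The related genes were examined as 6 lists of 61 genes, of which 51 were tested. In the fit without the block, the edgeR quasi-likelihood test, adjusted by Benjamini-Hochberg, called 0% of the 16729 genes at an adjusted p under 0.05, with 665 genes at an unadjusted p under 0.05, and DESeq2 called 21 genes. With the replicate number as a block, edgeR called 8.44% of genes, 3.35% higher and 5.09% lower with GSK-126. Of the 51 list genes, 19 were called with the block, 7 higher and 12 lower, and 0 without it, where 8 had an unadjusted p under 0.05 and DESeq2 called 1. The lists were written with earlier results of these data known, so nothing is read from the share of list genes called. Apart from the AMPA receptor subunits, the genes described first in each list were picked by the smallest blocked p. Every adjusted p below is from the blocked quasi-likelihood fit of edgeR and is adjusted over all genes tested, and the same test without the block gave 0.953 or more for all of these genes except Ptx3.

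Of the pentraxin genes outside the family, 2 were tested, and both had higher values with GSK-126 in each pair. Ptx3, a secreted long pentraxin of innate immunity, had 14.3, 13.8 and 18.5 CPM under DMSO and 30.9, 39.3 and 34.9 CPM under GSK-126, with no overlap. Its log2 fold change was 1.18 (SE 0.14, adjusted p = 1.824e-05) with the block and 1.17 (SE 0.18, adjusted p = 0.498) without it, where DESeq2's Wald test gave an adjusted p of 0.000231. Svep1, a large matrix protein with a pentraxin domain, had 50.5, 33.7 and 101 CPM under DMSO and 72.2, 44.6 and 112 CPM under GSK-126. Its blocked log2 fold change was 0.35 (SE 0.096, adjusted p = 0.02845), and the call was lost without pair 1 or pair 2 and with DESeq2. Both tested genes of this list were thus called higher with the block, against 3.35% of all genes, but only the call of Ptx3 held when any pair was left out. The median log2 fold change without the block was 0.73, against -0.0071 over all genes. It is the middle of only 2 values, 1.17 for Ptx3 and 0.30 for Svep1, and Svep1 fell to 0.0044 without DMSO replicate 2.

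Ptx4, Crp and Apcs, the other genes of that list, were listed at 0 in all libraries. Crp and Apcs are the short pentraxins made by the liver. Of the other related genes, Cacng7, Cacng8, C1ql4 and Egr2 were also listed at 0 throughout and Nrxn2 had 1 count in all, although Cacng7 and Nrxn2 are known from neurons. Whether a listed 0 reflects absent RNA or the counting was not tested.

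Of the 4 AMPA receptor subunits, to which the neuronal pentraxins bind, 2 were called lower with the block, against 5.09% of all genes. Gria2, the subunit that makes the channel impermeable to calcium, had 340.5, 540 and 342 CPM under DMSO and 269, 425 and 309 CPM under GSK-126. Its blocked log2 fold change was -0.28 (SE 0.072, adjusted p = 0.01726). Gria4, a subunit that is abundant in cerebellar granule neurons, had 232, 264 and 191 CPM under DMSO and 184, 228 and 156.5 CPM under GSK-126, a blocked log2 fold change of -0.28 (SE 0.072, adjusted p = 0.0189). The Gria2 call was lost without pair 1 or pair 2, and the Gria4 call without pair 1 or pair 3.

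Gria1 had 357, 96.5 and 162 CPM under DMSO and 369, 91.9 and 150 CPM under GSK-126, so that the cultures differed widely and the pairs hardly at all. Its blocked log2 fold change was -0.039 (SE 0.074, adjusted p = 0.822). Gria3 had 50.5 to 77.0 CPM under DMSO and 56.1 to 73.7 CPM under GSK-126 (blocked log2 fold change -0.0088, SE 0.094, adjusted p = 0.972). The median log2 fold change of the 4 subunits without the block was -0.15, against -0.0071 over all genes. Short annotated genes on the same strand overlap Gria2, Gria3 and Gria4 by 19 to 111 exon bases.

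Of 11 tested auxiliary subunits of AMPA receptors, 3 were called lower with the block and 0 higher, against 5.09% and 3.35% of all genes. Their median log2 fold change without the block was -0.053, against -0.0071 over all genes. Frrs1l, which acts in receptor assembly, had 193, 461 and 272 CPM under DMSO and 127, 240 and 200.5 CPM under GSK-126, highest in replicate 2 of each group as Nptx1 was. Its blocked log2 fold change was -0.66 (SE 0.085, adjusted p = 3.687e-05). Cacng2, or stargazin, which carries AMPA receptors to the surface of granule neurons, had 84.3, 118.5 and 106 CPM under DMSO and 62.8, 92.4 and 65.05 CPM under GSK-126 (-0.49, SE 0.089, adjusted p = 0.00112). Shisa6, which holds receptors at the synapse, had 35.6 to 46.4 CPM under DMSO and 27.6 to 32.7 CPM under GSK-126 (-0.46, SE 0.12, adjusted p = 0.01511), and its call was lost without pair 3.

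Of 16 tested genes for other synaptic organizers, 6 were called lower with the block and 0 higher, against 5.09% and 3.35% of all genes. Their median log2 fold change without the block was -0.27, against -0.0071 over all genes. Cbln3, a granule neuron cerebellin secreted with Cbln1 and also 1 of the 7 granule neuron markers, had 83.6, 226 and 88.7 CPM under DMSO and 47.4, 113 and 48.6 CPM under GSK-126. Its blocked log2 fold change of -0.90 (SE 0.083, adjusted p = 7.158e-07) lay between the described values of Nptxr and Nptx1. Nrxn3, a presynaptic adhesion protein, had 115.5, 273 and 128 CPM under DMSO and 73.2, 119 and 93.1 CPM under GSK-126 (-0.78, SE 0.10, adjusted p = 5.855e-05). Lrrtm3, a postsynaptic partner of neurexins, had 46.8, 108 and 58.3 CPM under DMSO and 30.2, 62.0 and 41.0 CPM under GSK-126 (-0.65, SE 0.099, adjusted p = 0.000206).

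These 4 genes, Frrs1l, Cbln3, Nrxn3 and Lrrtm3, were all highest in DMSO replicate 2. Without that library, the log2 fold changes of the fit without the block came down to -0.29, -0.30, -0.35 and -0.24, while their calls with the block held when any pair was left out. The same omission brought Gria2 to -0.027, Gria4 to -0.16 and Svep1 to 0.0044, and Svep1 turned to -0.082 without GSK-126 replicate 3. Exons of Svep1, Cacng2, Nrxn3 and Junb overlap a gene on the opposite strand.

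Among genes for binding and processing of pentraxins, 3 of 5 were called higher with the block and 0 lower, against 3.35% and 5.09% of all genes. Their median log2 fold change without the block was 0.31, against -0.0071 over all genes. The 3 called genes encode the chains of C1q, the complement protein that pentraxins bind and that microglia make. C1qa had 181, 68.4 and 110 CPM under DMSO and 215, 109 and 162 CPM under GSK-126 (0.48, SE 0.086, adjusted p = 0.0009635). C1qb had 87.1, 38.7 and 95.3 CPM and then 129.5, 63.2 and 98.2 CPM (0.43, SE 0.11, adjusted p = 0.013), and C1qc had 123.5, 52.7 and 108 CPM and then 145.5, 82.8 and 123 CPM (0.35, SE 0.092, adjusted p = 0.02036).

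The C1q genes were lowest in replicate 2 of each group, opposite to the members, and the microglial marker sum stood 0.17, 0.24 and 0.038 higher in the pairs on the log2 scale. The part of microglial number in the C1q values was not tested. Without DMSO replicate 2, the log2 fold changes of C1qa, C1qb and C1qc in the fit without the block came down from 0.44, 0.40 and 0.31 to 0.16, 0.092 and 0.020. C1qb lost its call without pair 1 or pair 2 and C1qc without pair 2. Adam17, the protease that releases Nptxr from the membrane, did not pass the test (0.038, SE 0.082, adjusted p = 0.840), nor did Rcn2, a calcium-binding partner of the pentraxins (0.060, SE 0.080, adjusted p = 0.727).

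Since Nptx2 is known as an activity-induced gene, 14 activity-regulated genes were listed, of which 13 were tested. With the block, 2 were called higher and 1 lower, against 3.35% and 5.09% of all genes. Their median log2 fold change without the block was -0.013, against -0.0071 over all genes. Egr4, a zinc finger transcription factor, had 7.84, 30.2 and 8.60 CPM under DMSO and 1.67, 7.0 and 0.801 CPM under GSK-126, with no overlap, although GSK-126 replicate 3 rests on 6 counts. Its blocked log2 fold change was -2.38 (SE 0.24, adjusted p = 2.906e-06), and the value without the block moved from -2.30 to -1.38 when DMSO replicate 2 was left out. Fos had 19.4, 26.4 and 23.3 CPM under DMSO and 30.7, 58.4 and 29.4 CPM under GSK-126 (0.73, SE 0.14, adjusted p = 0.00222), and lost its call without pair 2. Junb had 35.1 to 48.8 CPM under DMSO and 52.1 to 64.2 CPM under GSK-126 (0.40, SE 0.10, adjusted p = 0.01652), and lost its call without pair 1 or pair 2. The remaining 10 genes did not pass.

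**Figure D5:**
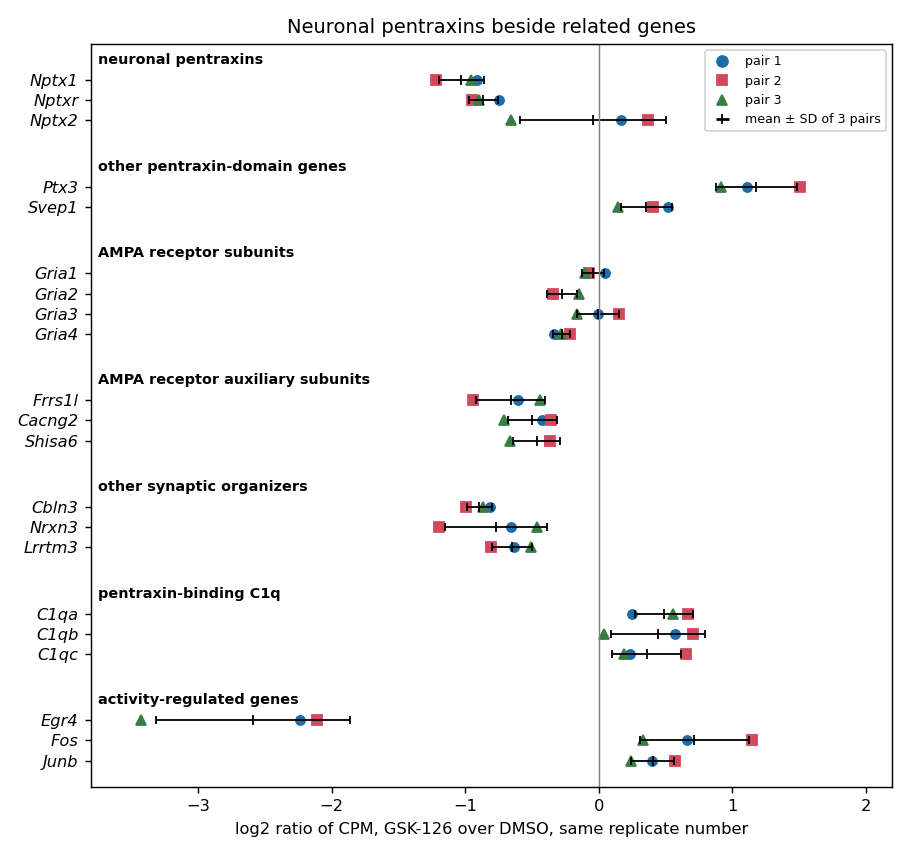
Log2 ratio of CPM, GSK-126 over DMSO, in each pair of libraries of the same number, for the members and the related genes named in the text; black bars are the mean ± SD of the 3 pairs. Nptx1 and Nptxr lie near -1 beside Cbln3, Nptx2 spans 0, and Ptx3 and the C1q genes lie to the right of 0.

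The genes most like each member were ranked by Pearson's r of log2 CPM over the 6 libraries among the other genes with a mean log2 CPM over 4, which were 9961 for Nptx1 and Nptxr and 9962 for Nptx2. For Nptx1 the highest 5 included Vps52, Dnm1, Kcnc1 and 1700018A23Rik (0.997 for the last). Dnm1, which encodes the neuronal dynamin of synaptic vesicle retrieval, had 261, 525 and 271 CPM under DMSO and 155.5, 265 and 145 CPM under GSK-126. Kcnc1, a voltage-gated potassium channel of fast-spiking neurons, had 382, 793 and 439 CPM under DMSO and 223, 395 and 241 CPM under GSK-126. Vps52 and 1700018A23Rik followed the same profile with a far smaller span, Vps52 between 81.0 and 96.5 CPM, and both overlap exons of a gene on the opposite strand.

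For Nptxr the highest 5 were Wdr82 (0.999), Dact1, Cacna2d2, Madd and Herc3 (0.998). Dact1 had 68.5, 137 and 85.2 CPM under DMSO and 42.0, 79.7 and 51.8 CPM under GSK-126, and Madd 163, 321 and 219 CPM and then 114, 192 and 138 CPM. Wdr82 followed the same profile with a far smaller span, between 212 and 262 CPM. With the block, Wdr82 (log2 fold change -0.13) was not called, and the others ranged from -0.35 (Herc3) to -0.74 (Dact1). Exons of Dact1 and of Cacna2d2 overlap a gene on the opposite strand. Nptxr itself ranked 146 for Nptx1, and Nptx1 ranked 237 for Nptxr. So many genes shared the profile, which is that of the pairs and of replicate 2, that 1081 genes (10.9%) had an r of at least 0.9 with Nptx1 and 1200 (12.05%) with Nptxr.

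For Nptx2 the highest 5 were Rbm15b (0.985), Slc4a3, Atp5c1, Maip1 and Cisd1 (0.980), with blocked log2 fold changes between -0.020 and 0.063. With 7 to 29 counts of Nptx2 per library this ranking rests on sparse counts, and exons of Rbm15b and Maip1 overlap other genes. Its r with Nptx1 was 0.434 and with Nptxr 0.328, and 114 genes (1.14%) reached 0.9 with it.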

How the data were processed

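The authors trimmed reads (Trimmomatic 0.38), aligned them to GRCm38.p4 (mm10) with STAR 2.7.2b and deposited raw exon counts per gene from HTSeq, without normalization, 1 table per library. The annotation was a Gencode file for GRCm38.p4, and its release number, the strand setting and the counting mode are not given in the sources used here. The 55341 gene symbols equal the unique symbols of GENCODE M21, which gave coordinates and overlaps. Lines that name no gene held 58.7% to 60.7% of reads listed (0.883% to 1.1% were ambiguous between genes) and were left out.

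Counts were filtered by expression, scaled by TMM and tested with edgeR 4.0.16's quasi-likelihood test (R 4.3.3) over all genes, with Benjamini-Hochberg adjusted p under 0.05, first without a replicate block. Replicate numbers, from the labels, paired the libraries: deviations of same-numbered libraries correlated at 0.561, 0.634 and 0.487, others at 0.00638 at most. Deviations from a group mean cancel out within the group, so positive same-number values push the others down, and the low others are not separate evidence of pairing. DESeq2 1.42.0 was an alternative. No library copied another (chi-square per degree of freedom at least 9.08). The scripts were tested on simulated data. Members and lists were chosen with earlier results of these data known. Named were the members, the AMPA subunits, per other list the up to 3 genes of smallest blocked p, and the 5 genes most correlated with each member, of which 1 is not reported here. Identity was computed from aligned coding sequences with Biopython 1.88.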

Additional observations from a re-analysis of the deposited data

How the results depend on the processing

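The log2 fold changes of Nptx1 and Nptxr stayed negative under all 16 alternatives each, among them other scaling, DESeq2, other filters on low counts and each library left out (Nptx1 -0.57 to -1.42, Nptxr -0.49 to -1.21). Nptx2 ranged from -0.23 to 0.43 over single libraries left out and turned negative in 2 of these, lacking DMSO replicate 3 (-0.051) or GSK-126 replicate 2 (-0.23), and with the replicate block without replicate 1 (-0.022) or without replicate 2 (-0.17), and it had too few counts for the filter of at least 10 in every library. The number of genes called moved from 0 to 21 with DESeq2, 10 with no filter on low counts, 1412 with the replicate block and 999 with DESeq2 and the replicate block, and single libraries left out gave 0. With the block, leaving out a pair gave 833 to 1277 genes (1088 without replicate 1). For the list genes the number moved from 0 to 1 with DESeq2, 1 with no filter on low counts, 19 with the replicate block, 16 with DESeq2 and the block, and 12 to 17 with the block and a pair left out (13 without replicate 1). The spread between cultures limits the fit without the block, where the biological coefficient of variation was 24%. With the replicate numbers fitted as a block, 9.74% remained, which leaves out the differences between replicate numbers. Nptx2, at 7 to 29 counts per library, is limited by depth. The block fits assume that the numbers mark shared cultures, which the labels do not state.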
